A study of Mus musculus with 12 samples.

Results

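Collagen is modified, folded, trimmed and crosslinked by a set of dedicated proteins, and the transcripts of 10 of them were described in fibroblasts treated with thymol. The genes were chosen by name for these steps, with earlier results of these data known. They include 2 collagen prolyl 4-hydroxylase subunits (*P4ha1*, *P4ha2*) and 3 lysyl hydroxylases (*Plod1*, *Plod2*, *Plod3*). The others are the collagen chaperone *Serpinh1*, the procollagen processing factor *Pcolce* and 3 lysyl oxidases (*Lox*, *Loxl1*, *Loxl2*). All 10 of the 10 were among the 10697 genes of the table. Primary mouse adult fibroblasts (MAFs), which are cells that grow out of pieces of adult tissue in culture, came from C57BL6/j mice of WT genotype. One group of 6 libraries received 100 µM thymol, a phenolic monoterpene of thyme and oregano dissolved in DMSO, for 24 h, and the control group of 6 libraries received an equal volume of DMSO alone. All cells were grown in DMEM with high glucose and fetal bovine serum. The age, sex and biopsy site of the mice were not given in the labels, and the paper reports the use of male mice only. The question was which transcripts of the collagen-modifying machinery differed after thymol.

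Collagen chains enter the endoplasmic reticulum, where prolyl hydroxylases modify prolines that keep the triple helix stable at body temperature and lysyl hydroxylases modify lysines that later carry sugars and crosslinks. Both kinds of hydroxylase need iron, oxygen, 2-oxoglutarate and ascorbate. The folded procollagen is escorted by *Serpinh1*, trimmed outside the cell by proteases that *Pcolce* stimulates, and then crosslinked by copper-dependent lysyl oxidases. Fibroblasts are the main makers of fibrillar collagen in connective tissue.

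The only one of the 10 genes called was *Plod2*, which encodes the lysyl hydroxylase that acts on the telopeptides, the short ends of the collagen chain from which stable crosslinks are built. *Plod2* is transcribed in 2 coding forms that differ by 1 cassette exon. The exon is shown because the libraries could not tell the forms apart, so that the *Plod2* values below are sums over both. It is exon 14 of 20 in the longer form and lies on chromosome 9, at chr9:92601985-92602047 of GRCm38 on the + strand, inside the coding sequence. Its 63 bases are a multiple of 3, so both forms keep one reading frame. The exon is in capitals, with 15 bases of each neighbouring exon of the spliced transcript in lower case, from the GENCODE vM21 transcripts.
Plod2 cassette exon: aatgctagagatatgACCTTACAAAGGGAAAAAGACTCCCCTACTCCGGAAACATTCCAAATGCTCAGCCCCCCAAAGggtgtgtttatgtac
The exon ends 1904 bases before the end of its transcript, whereas the libraries read the 3′ end of polyadenylated RNA. The transcripts with and without the exon end at positions 92608420 and 92608428, only a few bases from each other. A change in the use of the exon could therefore not be measured.

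Expression was measured by QuantSeq 3′ mRNA sequencing, in which a transcript gives about 1 read from its 3′ end whatever its length. Values are log2 CPM, the logarithm of reads scaled to a common library size, so that a difference of 1 is a doubling. The whole reads recovered from the table summed to between 5435985 and 9049796 per library, and thymol replicate 5 was the deepest. Single genes among the 10 held from 241 reads (*P4ha2*) to 15738 reads (*Lox*) in a library. The 2 groups were compared with limma across all genes, two-sided, and a gene was called when its p-value was under 0.05 after Benjamini-Hochberg adjustment across the whole table. Of all genes, 2.22% were called, and 1.57% were called with a lower level after thymol. The labels do not say whether the libraries of a group came from separate cultures or animals, so the p-values measure only the spread between these libraries. Odd- and even-numbered libraries gave different numbers of calls when fitted alone, 70 and 167 genes, so the difference of each of the 10 genes is also given within each set.

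The cultures carried markers of more than one cell type. Of 15 fibroblast markers, 13 were in the table, and *Lum* and *Fap* were not. Their mean per library ranged from 7.13 to 7.24 log2 CPM with DMSO and from 7.19 to 7.29 with thymol. All 15 macrophage markers were in the table, with means of 8.97 to 9.07 with DMSO and 8.94 to 9.11 with thymol. Among the macrophage markers the protease gene *Ctss* was higher with thymol by 0.26 (limma adjusted p = 0.00014) and the integrin gene *Itgam* was lower, with a difference of -0.31 (limma adjusted p = 0.00071). Of the fibroblast markers 0 were called by limma, beside 2.22% of all genes, and 1 (*Fbln2*) was called by limma's voom on the recovered reads. An unadjusted limma p under 0.05 was found for 5 of the 13 fibroblast markers and 6 of the 15 macrophage markers, beside 11.8% of all genes. Among the macrophage markers voom called 3, *Cd68* in addition to *Ctss* and *Itgam*. *Des* was listed both for skeletal muscle and for pericytes or smooth muscle. The table held 1 of 8 endothelial, 1 of 8 keratinocyte, 2 of 8 skeletal muscle, 4 of 8 pericyte or smooth muscle and 1 of 8 adipocyte markers. Called among these were the skeletal muscle actin *Acta1*, with a difference of -0.45 (limma adjusted p = 5.0e-05), and the smooth muscle myosin *Myh11*, with a difference of -0.37 (limma adjusted p = 0.0070). In bulk cultures, fewer cells of a type and less RNA per cell cannot be told apart, which holds for every value below.

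All 10 genes lay above the median gene of the table, and their levels spanned a wide range in DMSO. *Lox* was highest, at 10.70 ± 0.054 log2 CPM (SD, n = 6), above 99.6% of the genes. *Serpinh1* followed at 9.28 ± 0.10 and *Loxl2* at 8.54 ± 0.11, and each of these 3 was apart from its neighbours in every DMSO library. *Loxl1* and *Pcolce* came next and overlapped each other. *Plod3*, *Plod2* and *P4ha1* formed a run in which each overlapped the next, and *Plod1* and *P4ha2* shared the lowest place, with *P4ha2* at 5.87 ± 0.12, above 67.7% of the genes. The order compares read numbers at 3′ ends, where the length of a transcript does not enter but the efficiency of priming may differ between genes. The plot of levels by library shows the 12 values of each gene.

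**Figure D1:**
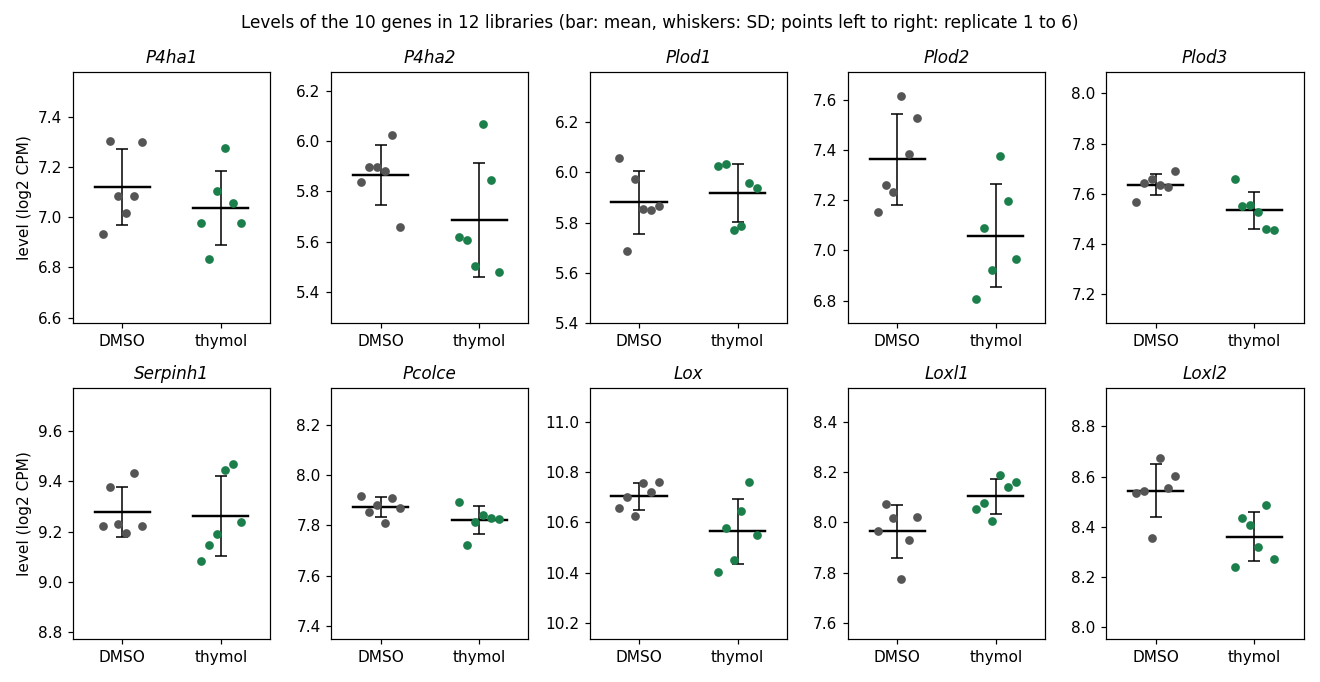
Level of each of the 10 genes in log2 CPM (vertical axis, 1 log2 unit in every panel) in the 6 DMSO and 6 thymol libraries, with points for libraries from replicate 1 to 6, bars for means and whiskers for SD. The groups overlap in every panel; 4 of 6 thymol libraries of Plod2 lie under all DMSO libraries and 4 of 6 thymol libraries of Loxl1 lie above them.

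The prolyl 4-hydroxylases were not called. *P4ha1*, the main catalytic subunit in most cell types, lies on chromosome 10 (59323296 to 59373304, GRCm38, + strand). Its DMSO libraries ran from 6.93 through a median of 7.08 to 7.30 log2 CPM and its thymol libraries from 6.83 through 7.02 to 7.27. Most of the 2 ranges coincided, and only thymol replicate 2 lay under all DMSO libraries. The difference, thymol minus DMSO, was -0.08 ± 0.074 (SE), with a 95% confidence interval of -0.23 to 0.06 and a limma adjusted p of 0.752. *P4ha2*, the alternative catalytic subunit, lies on chromosome 11 (54100095 to 54131665, + strand). Its DMSO libraries ran from 5.66 through 5.89 to 6.03 and its thymol libraries from 5.48 through 5.61 to 6.07. Here 4 thymol libraries were under all DMSO libraries, while thymol replicate 4 was above all of them. The difference of *P4ha2* was -0.18 ± 0.099, with an interval of -0.38 to 0.02 (limma adjusted p = 0.497). *P4ha2* had the widest interval of the 10 genes, and an effect of the size seen for *Plod2* was within it.

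The 3 lysyl hydroxylases gave 1 lower gene, *Plod2*, and 2 that were not called. *Plod2* (chromosome 9, 92542223 to 92608428, + strand) ran from 7.15 through a median of 7.32 to 7.61 log2 CPM in DMSO and from 6.81 through 7.03 to 7.37 with thymol. In the thymol group 4 of 6 libraries lay under all DMSO libraries and 5 of 6 under the DMSO median. Replicate 1 was lowest and replicate 4 highest in both groups. Its mean was 7.36 ± 0.18 in the control group and 7.06 ± 0.21 in the treated group (SD, n = 6 each). *Plod2* thus differed by -0.30 ± 0.079 (SE), with a 95% confidence interval of -0.46 to -0.14 and a limma adjusted p of 0.021, and fell by 19.0%. Exact permutation of the group labels of the 12 libraries (two-sided) gave p = 0.026, not adjusted for other genes. In reads, *Plod2* had a mean of 1162 per DMSO library and 879 per thymol library. The difference was -0.28 in the odd-numbered and -0.32 in the even-numbered libraries, and it did not pass the limma test in either set alone (adjusted p = 0.336 and 0.054). Without the mean-variance trend in limma the difference was the same and the call ended (adjusted p = 0.306). It also ended without any 1 of 5 libraries: without DMSO replicate 4, which held the highest value, the difference was -0.25 (adjusted p = 0.091), and without DMSO replicate 6 or thymol replicate 1, 3 or 6 the adjusted p was between 0.064 and 0.084, all by limma.

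*Plod1*, the hydroxylase of lysines in the helical part of collagen, lies on chromosome 4 (147909753 to 147936767, - strand). Its libraries ran from 5.69 through 5.86 to 6.06 with DMSO and from 5.77 through 5.95 to 6.03 with thymol. Every thymol library was inside the DMSO range. The difference was 0.04 ± 0.089, with an interval of -0.14 to 0.22 (limma adjusted p = 0.938). *Plod3*, which also adds sugars to hydroxylated lysines, lies on chromosome 5 (136987019 to 136996648, + strand). It varied little between libraries, at 7.57, 7.64 and 7.69 (lowest, median and highest) with DMSO and 7.46, 7.54 and 7.66 with thymol. Apart from thymol replicate 1, all thymol libraries lay under all DMSO libraries of *Plod3*. The difference of -0.10 ± 0.059 had an interval of -0.22 to 0.02 and was not called (limma adjusted p = 0.537). By the exact two-sided permutation test, which uses the spread of this gene alone, the unadjusted p was 0.0238. The SD of *Plod3*, 0.041 with DMSO and 0.074 with thymol, was under that of *Plod2* (0.18 and 0.21), whereas limma draws the spread of each gene towards that of genes of like level.

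Neither the folding nor the trimming factor was called. *Serpinh1*, which encodes the chaperone HSP47 that binds folded procollagen in the endoplasmic reticulum, lies on chromosome 7 (99345376 to 99353239, - strand). Its libraries ran from 9.19 through 9.23 to 9.43 log2 CPM with DMSO and from 9.08 through 9.21 to 9.47 with thymol. The thymol libraries were spread to both sides of the controls, with 3 under all DMSO libraries and 2, replicates 4 and 5, above all of them. The difference was -0.02 ± 0.057 with an interval of -0.13 to 0.10 (limma adjusted p = 0.961). *Pcolce*, which enhances the removal of the C-terminal propeptide of procollagen, lies on chromosome 5 (137605103 to 137613784, - strand). Its values were 7.81, 7.87 and 7.92 with DMSO and 7.72, 7.83 and 7.89 with thymol. Only thymol replicate 2 was under the DMSO range. The difference of -0.05 ± 0.056 had an interval of -0.17 to 0.06 (limma adjusted p = 0.811). For both genes, the intervals leave out a fall as large as the one fitted for *Plod2*.

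The lysyl oxidases oxidise lysines of collagen and elastin outside the cell, the first step of a crosslink. None of the 3 was called, although each had an unadjusted limma p under 0.05, and they did not share a direction. *Lox*, the founding member of the family, lies on chromosome 18 (52516067 to 52529867, - strand) and ran from 10.63 through 10.71 to 10.76 log2 CPM with DMSO and from 10.40 through 10.56 to 10.76 with thymol. With thymol 4 libraries were under all DMSO libraries, and replicate 5, the deepest library, stood at the top of the DMSO range. The difference of *Lox* was -0.14 ± 0.049 with an interval of -0.24 to -0.04 (limma adjusted p = 0.156). Without thymol replicate 5 it was -0.18 and was called (limma adjusted p = 0.023), as it was with the replicate block (limma adjusted p = 0.043).

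*Loxl2*, an oxidase that also crosslinks basement membrane collagen, lies on chromosome 14 (69609068 to 69695834, + strand). Its libraries ran from 8.35 through 8.55 to 8.67 with DMSO and from 8.24 through 8.36 to 8.49 with thymol. All 6 thymol libraries were under the DMSO median, and 3 were under every DMSO library. The difference of -0.18 ± 0.057 had an interval of -0.30 to -0.07 and missed the threshold (limma adjusted p = 0.074). It was called without DMSO replicate 3, the lowest control (-0.22, limma adjusted p = 0.024), and without thymol replicate 5 (-0.21, limma adjusted p = 0.034). Fitted separately, odd-numbered libraries gave -0.10 (limma adjusted p = 0.861) and even-numbered ones -0.26, which was called (limma adjusted p = 0.034). *Loxl2* was also called with a minimum mean of 5 (limma adjusted p = 0.04996), with libraries centred on their median (limma adjusted p = 0.04965) and with the replicate block (limma adjusted p = 0.042).

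*Loxl1*, which is best known for work on elastic fibres, lies on chromosome 9 (58287738 to 58313186, - strand). It was the gene of the 10 with the largest difference towards higher values. Its libraries ran from 7.78 through 7.99 to 8.07 with DMSO and from 8.01 through 8.11 to 8.19 with thymol. No thymol library was under the DMSO median and 4 of 6 were above every DMSO library, yet the difference of 0.14 ± 0.058, with an interval of 0.02 to 0.26, was not called (limma adjusted p = 0.272). The exact two-sided permutation p, unadjusted, was 0.0195 for *Loxl1*, 0.0173 for *Loxl2* and 0.0390 for *Lox*.

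**Figure D2:**
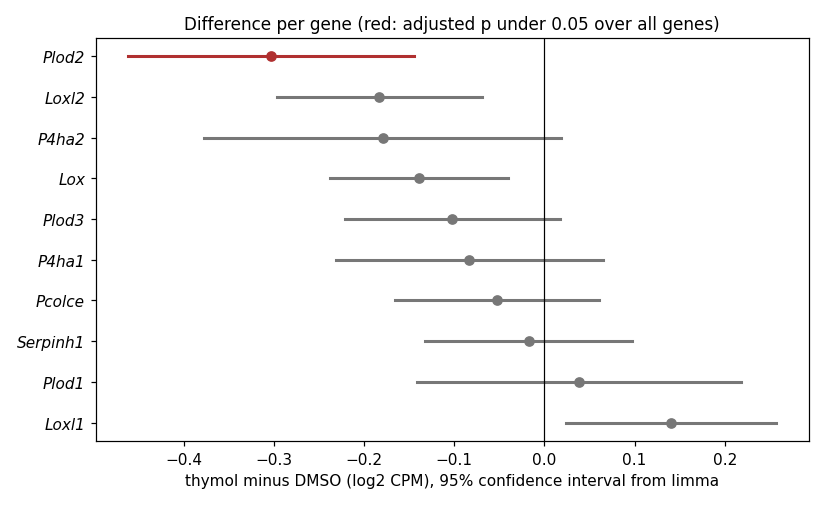
Difference in log2 CPM (thymol minus DMSO, horizontal axis) for the 10 genes, with 95% confidence intervals from limma and n = 6 libraries per group; red marks an adjusted p under 0.05. Plod2 alone is red, at -0.30, and Loxl1, at 0.14, is the highest point.

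Among the 10 genes, 1 (10%) was called, beside 2.22% of all genes. A lower mean with thymol was found for 8 of the 10, beside 5256 of all 10697 genes. A single call is too few to set the genes apart from the table. At an unadjusted limma p under 0.05 there were 4 of the 10 (*Plod2*, *Lox*, *Loxl1* and *Loxl2*), beside 11.8% of all genes. Groups with no overlap at all were found for 0 of the 10, beside 1.68% of all genes (180). The median difference of the 10 was -0.093, beside 0.0026 over all genes, and the median absolute difference was 0.12, beside 0.098. Averaged per library, the 10 genes stood at 7.82 ± 0.028 log2 CPM in the DMSO group and at 7.73 ± 0.078 in the thymol group (SD, n = 6 each). The spread of that mean was wider in the thymol group, where replicate 4 held the highest value of *P4ha1*, *P4ha2*, *Plod2* and *Loxl1*, and replicate 5 that of *Lox*, *Loxl2* and *Serpinh1*. Thymol replicate 1 held the lowest value of *Lox*, *Loxl2*, *Plod2* and *Serpinh1*.

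Within the odd- and the even-numbered libraries, 3 genes had differences of opposite sign, none of them called in either set. *P4ha1* differed by 0.01 in the odd set and by -0.18 in the even set, *Plod1* by -0.04 and 0.12, and *Serpinh1* by -0.05 and 0.01, in the same order. *P4ha2* differed by -0.26 and -0.09, *Plod3* by -0.06 and -0.14, and *Pcolce* by -0.06 and -0.05. *Lox* differed by -0.13 and -0.15 and *Loxl1* by 0.10 and 0.18. Whether the sets differed from each other was not tested.

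Whether genes of one family moved differently was tested on their difference within each library, over 7 pairs, with two-sided tests by exact permutation and Benjamini-Hochberg adjustment over the pairs. The pairs of *Loxl1* with *Lox* and with *Loxl2* passed, and they share *Loxl1*, so they are not independent. Pairs with *Loxl3* were not tested. The level of *Lox* exceeded that of *Loxl1* by 2.74 ± 0.13 log2 units with DMSO and by 2.46 ± 0.095 with thymol (SD, n = 6 each), which is 6.68 *Lox* reads for each *Loxl1* read with DMSO and 5.50 with thymol. The shift of -0.28 ± 0.067 (SE) passed the exact permutation test (p = 0.00433, adjusted p = 0.0303). Single libraries ran from 2.61 to 2.98 with DMSO and from 2.35 to 2.62 with thymol, so that the groups overlapped only at their edges. *Loxl1* minus *Loxl2* was -0.58 ± 0.19 with DMSO and -0.26 ± 0.13 with thymol. The shift of 0.32 ± 0.092 also passed (exact permutation p = 0.00866, adjusted p = 0.0303), and *Loxl1* reads went from 0.669 to 0.838 for each *Loxl2* read. Without DMSO replicate 4 or 5, this second shift no longer passed (exact permutation test, adjusted p = 0.053 in both cases).

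*Lox* and *Loxl2* kept a nearly fixed distance, with a shift of 0.044 ± 0.050 (exact permutation p = 0.396, adjusted p = 0.411). In the lysyl hydroxylases, *Plod1* minus *Plod2* shifted by 0.34 ± 0.15, which was past 0.05 before the adjustment and not after it (exact permutation p = 0.0476, adjusted p = 0.111). The call of *Plod2* and the absence of a call for *Plod1* and *Plod3* therefore do not show that the 3 hydroxylases differed in response. *Plod2* minus *Plod3* shifted by -0.20 ± 0.12 (exact permutation, adjusted p = 0.185) and *Plod1* minus *Plod3* by 0.14 ± 0.079 (exact permutation, adjusted p = 0.185). *P4ha1* minus *P4ha2* shifted by 0.096 ± 0.11 (exact permutation, adjusted p = 0.411). A ratio of 2 genes shows unequal change and does not say which of them changed.

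**Figure D3:**
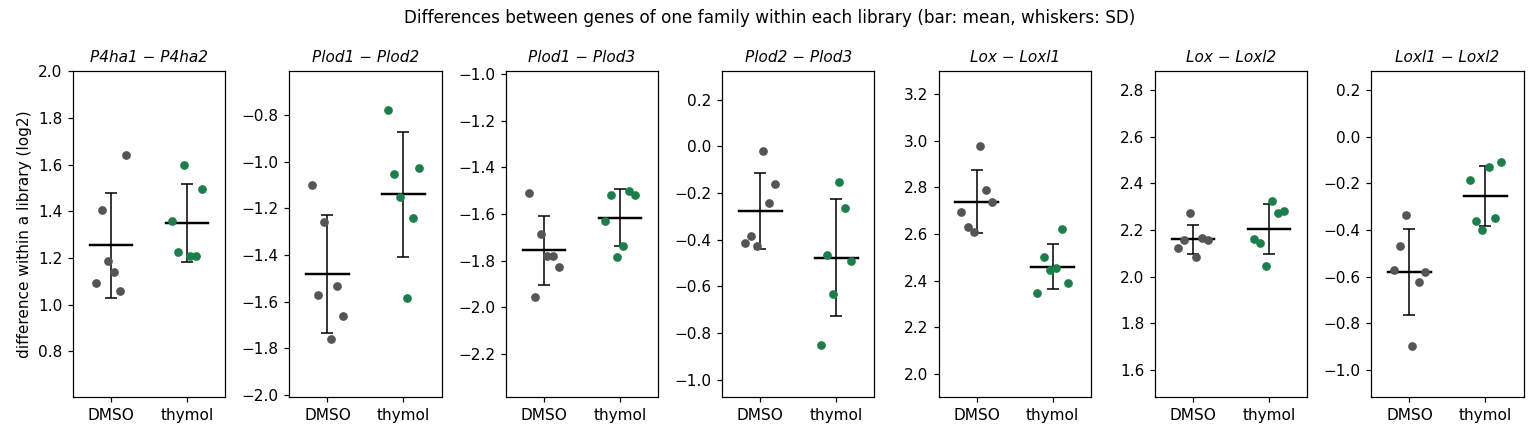
Difference between 2 genes of a family within each library (vertical axis, log2) for 7 pairs, with points for the 6 DMSO and 6 thymol libraries, bars for means and whiskers for SD. Lox minus Loxl1 moves down with thymol, from 2.74 to 2.46, and Loxl1 minus Loxl2 moves up, from -0.58 to -0.26.

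Further enzymes and partners of the same steps were not called. Of 30 such genes 26 were in the table. By limma or by voom 0 were called in either direction, beside 2.22% of all genes called by limma. An unadjusted limma p under 0.05 was found for 5 of the 26, beside 11.8% of all genes. The median difference of the 26 was 0.0072, beside 0.0026 over all genes, and 12 were lower and 14 higher. The smallest p-values belonged to *Colgalt1*, which adds galactose to hydroxylysine and differed by 0.14 (limma adjusted p = 0.284), *Adamts2*, the protease of the N-terminal propeptide, which differed by -0.24 (limma adjusted p = 0.329), and *Mia3*, which loads collagen into transport vesicles and differed by 0.13 (limma adjusted p = 0.353). Direct partners of the 10 genes are named here after their values were seen. *P4hb*, the shared second subunit of the prolyl 4-hydroxylases, differed by 0.035 (limma adjusted p = 0.864) and *P4ha3*, another catalytic subunit, by -0.028 (limma adjusted p = 0.960). *Bmp1*, the protease that *Pcolce* stimulates, differed by 0.082 (limma adjusted p = 0.758), and *Fkbp10*, a foldase needed for telopeptide hydroxylation, by 0.014 (limma adjusted p = 0.972). *Loxl3* differed by 0.14, the same size as *Loxl1*, and was not called either (limma adjusted p = 0.357).

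Among collagen and elastic fibre genes, which include substrates of these enzymes, more genes were called. Of 18 collagen and elastic fibre genes, all in the table, 4 were lower with thymol and 0 were higher by the limma test, beside 1.57% of all genes called lower, and voom called 3 of the 4, leaving out *Fbln5*. Their median difference was -0.24, and 16 of the 18 were lower, beside 5256 of all 10697 genes. *Col3a1* and *Col1a1*, the chains of the main fibrillar collagens, differed by -0.54 ± 0.055 (SE, limma adjusted p = 4.4e-10) and -0.28 ± 0.044 (limma adjusted p = 2.9e-05), and in both the groups did not overlap. Both were known from an earlier look at these libraries, and the whole list was chosen with earlier results known. Neither these genes nor the counts of the list are independent evidence of a direction. *Col12a1*, a fibril-associated collagen, differed by -0.26 (limma adjusted p = 0.0078) and *Fbln5*, an organiser of elastic fibres that binds *Loxl1* protein, by -0.27 (limma adjusted p = 0.040). *Col1a2*, the partner chain of *Col1a1*, differed by -0.069 and was not called (limma adjusted p = 0.607). Whether the collagen and elastic fibre genes differed from the modifying genes was not tested.

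Lists of genes that respond to conditions in which these enzymes are known to be regulated are given beside all genes. Limma called 2.22% of all genes, and 11.8% had an unadjusted limma p under 0.05. Of 20 oxygen-regulated genes 19 were in the table, none was called by limma or voom, none had an unadjusted limma p under 0.05, and the median difference was -0.027. The smallest p-values were those of *Eno1* (-0.19), *Ero1a* (0.20) and *Ldha* (-0.093), with limma adjusted p-values of 0.428, 0.469 and 0.574. Of 18 TGF-beta responsive genes 1 was called by limma, lower, beside 1.57% of all genes called lower. Voom called 2 of the 18 (*Tgfbi* and *Tpm1*). An unadjusted limma p under 0.05 was found for 6 of the 18, beside 11.8% of all genes. Of the 18, 14 were lower, beside 5256 of all 10697 genes, and the median was -0.073. The gene called by limma was *Tgfbi*, which encodes a secreted matrix protein and differed by -0.56 (limma adjusted p = 0.0013), followed by the contractile genes *Tpm1* (-0.15) and *Cnn1* (-0.20), with limma adjusted p-values of 0.056 and 0.060.

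General chaperones of the endoplasmic reticulum were tested beside *Serpinh1*, and *P4hb* and *Ppib* were also in the list of further enzymes and partners. None of the 15 was called by limma, beside 2.22% of all genes, and voom called 1 (*Hsp90b1*). An unadjusted limma p under 0.05 was found for 4 of the 15, beside 11.8% of all genes. Of the 15, 11 were lower, beside 5256 of all 10697 genes, and the median was -0.077. *Hsp90b1* differed by -0.15 with groups that did not overlap (limma adjusted p = 0.060), *Hspa5* by -0.12 (limma adjusted p = 0.238) and *Pdia4* by -0.22 (limma adjusted p = 0.272). Of 13 genes that handle ascorbate, iron and copper, the cofactors of hydroxylases and oxidases, 11 were in the table. None of these was called by limma or voom, and 3 had an unadjusted limma p under 0.05, beside 11.8% of all genes. The median difference of the 11 was -0.00064. *Atp7a*, the pump that delivers copper to secreted lysyl oxidases, differed by 0.33 (limma adjusted p = 0.107), and the ferritin genes *Fth1* and *Ftl1* by 0.099 and 0.11 (limma adjusted p = 0.326 and 0.368).

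**Figure D4:**
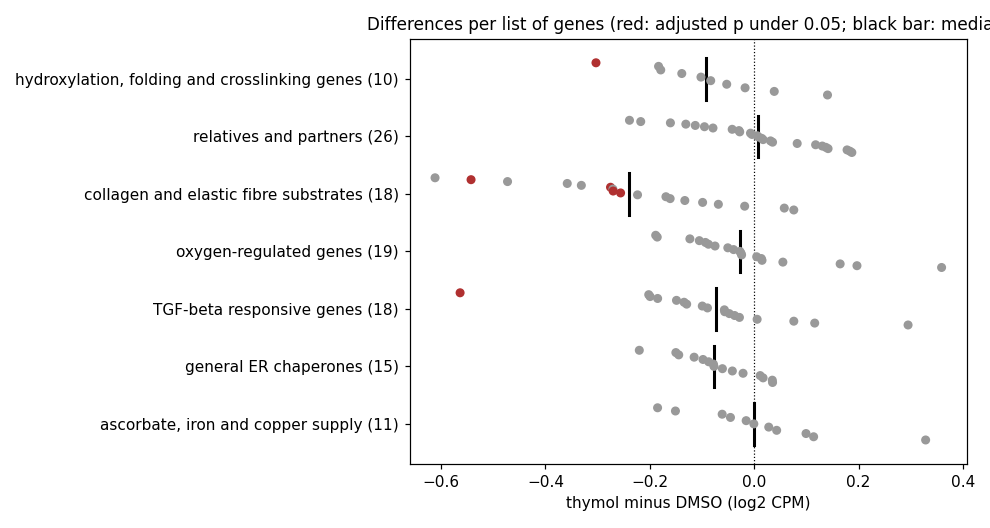
Difference in log2 CPM (thymol minus DMSO, horizontal axis) of every gene of 7 lists, with 1 point per gene, red for an adjusted p under 0.05 in limma and a black bar at the median. The collagen and elastic fibre list has its median at -0.24 and 4 red points, the hydroxylation, folding and crosslinking genes have theirs at -0.093 and 1 red point.

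The 10 genes were also placed beside the mean of the fibroblast markers in the same library, which was 7.18 ± 0.046 log2 CPM in the DMSO group and 7.22 ± 0.040 in the thymol group (SD, n = 6 each). On that scale *Plod2* differed by -0.35, *Loxl2* by -0.23, *Lox* by -0.18 and *Loxl1* by 0.098. *Pcolce* differed by -0.095, with an unadjusted exact permutation p of 0.00216, the smallest the design allows. That value rested on 1 marker, *Fbln1*, a gene with a mean of 2.63 in DMSO and a difference of 0.64 (limma adjusted p = 0.181). Without *Fbln1* the marker mean differed by -0.0074, *Pcolce* by -0.045 (exact permutation p = 0.236) and *Plod2* by -0.30 (exact permutation p = 0.0411). The lysyl oxidases moved as well without *Fbln1*. *Loxl2* then differed by -0.18 (exact permutation p = 0.0411), *Lox* by -0.13 (exact permutation p = 0.106) and *Loxl1* by 0.15 (exact permutation p = 0.0390), all unadjusted. Beside the mean of the macrophage markers, *Plod2* differed by -0.29 (exact permutation p = 0.0606), *Loxl2* by -0.17 and *Loxl1* by 0.16. The part of cell makeup in the difference of *Plod2* was not tested beyond these values.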

How the data were processed

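The 12 libraries were prepared from total RNA with the QuantSeq 3′ forward kit and amplified by PCR. The authors aligned reads to GRCm38 with STAR 2.5.3, counted them with HTSeq 0.6.1, dropped unannotated genes and genes with few reads, applied TMM scaling and tested counts with edgeR. The values deposited by the authors are log2 CPM with a prior count, so that differences of genes with few reads are drawn towards 0. Undoing the logarithm gave whole reads: of the values under 200 reads, 100% were whole to within 0.02 after an offset of 0.289 CPM that equals 1.96 reads in an average library. PCR reads are not independent molecules, and read numbers speak of counting error only. Within each group, no library was a copy of another.

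All genes were fitted with limma 3.58.1 (R 4.3.3; lmFit and trended eBayes, 2 groups without a covariate, two-sided, Benjamini-Hochberg over 10697 genes, threshold 0.05). Single values were tested by exact two-sided permutation of the group labels. The procedure was tested on simulated data. Named are all 10 genes, the called genes of each list (filled up to 3 by smallest p in pathway lists) and genes said to be named after their values were seen. The members and lists were chosen with earlier results of these data known. No set test was run. Coordinates are from GENCODE vM21. No other annotated gene covered the 3′ end of any of the 10. Alternatives were other variance models, voom on recovered reads, a pseudocount of 10, a minimum mean of 5, other normalizations, replicate or odd and even numbers as terms, and leaving out each library. Scaling to macrophage markers, or to fibroblast markers without *Fbln1*, was chosen after seeing the data.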

Additional observations from a re-analysis of the deposited data

How the results depend on the processing

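Of the 10 genes 1 was called in the reported analysis, 0 without the mean-variance trend and in the odd-numbered libraries alone, 2 with a minimum mean of 5 or with libraries centred on their median (*Plod2* and *Loxl2*), and 3 with the replicate block (*Plod2*, *Lox* and *Loxl2*). Leaving out single libraries gave 0 to 3. In the even-numbered libraries alone the single call was *Loxl2*. Over all genes 238 were called, 57 without the trend (where the limma adjusted p of *Plod2* was 0.306), 70 in the odd-numbered libraries and 172 to 270 when a library was left out. Correlations of same-numbered deviations ran from -0.051 to 0.27, and the block called 332 genes, beside 238 without it. Whether replicate numbers paired the libraries was not settled by these values. The adjusted p of *Plod2* stayed under 0.05 with the robust model, voom, the pseudocount of 10 and quantile normalization (limma, 0.028, 0.032, 0.014 and 0.029) and in 7 of 12 fits without a library. The direction turned for *P4ha1* (0.0121, odd-numbered libraries), *Plod1* (-0.0411, odd-numbered libraries; -0.0002 to 0.0735 without single libraries) and *Serpinh1* (0.0132, even-numbered libraries; -0.0588 to 0.0187 without single libraries). Groups separated for 0 to 1 genes and family pairs passed in 1 to 3 of 7 when a library was left out. *Lox* minus *Loxl1* passed in 12 of 12 such tests. The cause of these shifts was not tested.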
